A study of Mus musculus with 11 samples.

Results

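The genes of the major histocompatibility complex (MHC), called H2 in the mouse, and of antigen processing were followed in mPFC CRF1+ neurons of naïve and withdrawn mice. The set held every mouse gene whose symbol begins with H2- together with 20 listed genes of peptide production, loading and control, which gave 65 of the 53465 genes in the count files. Of these, 33 were class I chains (32 heavy chain genes and B2m), 10 were class II chains and 19 were processing genes. The other 3 (H2-Ke6, H2-Pa and H2-Pb) carried another H2- symbol and were counted apart. The heavy chain genes include H2-Bl, H2-K2, H2-M10.5-ps1, H2-M6-ps, H2-Q3, H2-Q5, H2-T-ps and H2-T10, which are annotated as pseudogenes of some type. The class II gene H2-Ea-ps is so annotated as well, and so are H2-Pa and H2-Pb. The 19 processing genes comprised 13 of the class I route, 4 of the class II route and the 2 transactivators Nlrc5 and Ciita.

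Class I molecules sit on nearly all nucleated cells and present peptides that the proteasome cuts from proteins made inside the cell. The transporter TAP carries these peptides into the endoplasmic reticulum, where chaperones load them onto a heavy chain paired with beta-2 microglobulin. Class II molecules, by contrast, are largely a property of professional antigen presenting cells such as microglia, macrophages, dendritic cells and B cells: an alpha and a beta chain assemble with the invariant chain Cd74, travel to endosomes, and exchange a remnant of Cd74 for peptide with the help of H2-DM. Neurons are known to express class I genes, where they have been tied to synapse remodeling, whereas class II genes are not counted among neuronal products.

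Each library was made from sorted GFP-positive cells of the medial prefrontal cortex (mPFC) of 1 adult male CRF1:GFP mouse, a reporter line in which GFP marks cells with the corticotropin-releasing factor receptor CRF1. Before sorting, the dissociated tissue was passed over a density gradient set up to enrich neurons, and live cells were gated with DAPI and DRAQ5. The gate itself used GFP and no neuronal marker. The 5 withdrawn mice had inhaled ethanol vapor in repeated cycles, with injections of ethanol and of pyrazole, which slows its clearance, and were then in forced abstinence for days. The 6 naïve mice breathed air and also received pyrazole, so that both groups shared the reporter allele, the sex and pyrazole. Withdrawn mice 3, 4 and 5 carry a second label that names them control, and the deposit's stated group sizes are reversed, so values without these 3 mice are also given.

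The libraries were amplified from 160 pg of RNA and held 7351567 to 22244869 counts on genes, with the fewest in withdrawn mouse 4. A floor of 3 counts corresponded to 0.135 to 0.408 CPM (counts scaled to library size), which covers counting error only. This floor used library sizes before normalization, whereas the levels below use normalized library sizes, so the 2 scales differ somewhat. The share of reads outside annotated genes was 5.77% to 31.5% in naïve mice and 13.3% to 48.1% in withdrawn mice, highest in withdrawn mice 4 and 2. Crhr1, which encodes CRF1, stood at 69.1 to 119 CPM in naïve and 42.2 to 136 CPM in withdrawn mice. The summed level of 6 neuron markers was 9082 to 11471 CPM in naïve and 5698 to 9495 CPM in withdrawn mice, so neuronal transcripts were abundant in every library. The lowest neuronal sum was that of withdrawn mouse 4.

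Across the set, levels were mostly higher in withdrawn mice, yet no member passed the test over all genes. Of the 65 members, 62 had at least 1 count and 37 passed the filter on low counts, with 30 of the 37 higher and 7 lower in withdrawn mice, where 51.8% of all genes tested were higher. None was called by edgeR's quasi-likelihood test with a Benjamini-Hochberg adjusted p up to 0.05 plus a log2 fold change larger than 0.6 in size, a call that 1 of 17093 genes (0.00585%) received. An unadjusted p under 0.05 was reached by 9 of the 37 (24.3%), all higher, against 7.22% of all genes tested (5.00% higher and 2.22% lower). The 9 were the class II chains H2-Aa, H2-Ab1, H2-Eb1 and H2-DMb1, the class I chain H2-T23, and Cd74, Ciita, Tapbp and Erap1. Of these, the 4 class II chains, Cd74 and Ciita had naïve medians of 0 to 0.930 CPM. They passed the low-count filter only with the withdrawn mice counted. Their direction, and with it the share of 24.3%, was therefore partly set by the filter. The median log2 fold change was 0.56 over the 37 members and 0.02 over all genes tested.

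The 9 had edgeR adjusted p-values from 0.102 (H2-DMb1) to 0.634 (Ciita). DESeq2's Wald test, the study's tool, called 8 members, all higher, among 43 with an adjusted p, against 1.66% of all its tested genes (1.57% higher). These were H2-Ab1, H2-Eb1, H2-DMb1, Cd74, Tapbp, H2-T23 and the low-count class I genes H2-T10 and H2-T-ps. H2-T10 is annotated as a polymorphic pseudogene and H2-T-ps as an unprocessed pseudogene. Without the 3 mice with conflicting labels, which leaves withdrawn mice 1 and 2, neither tool called a member (backgrounds of 0.00% by edgeR and 0.929% by DESeq2), and 4 members had an unadjusted edgeR p under 0.05.

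**Figure D1:**
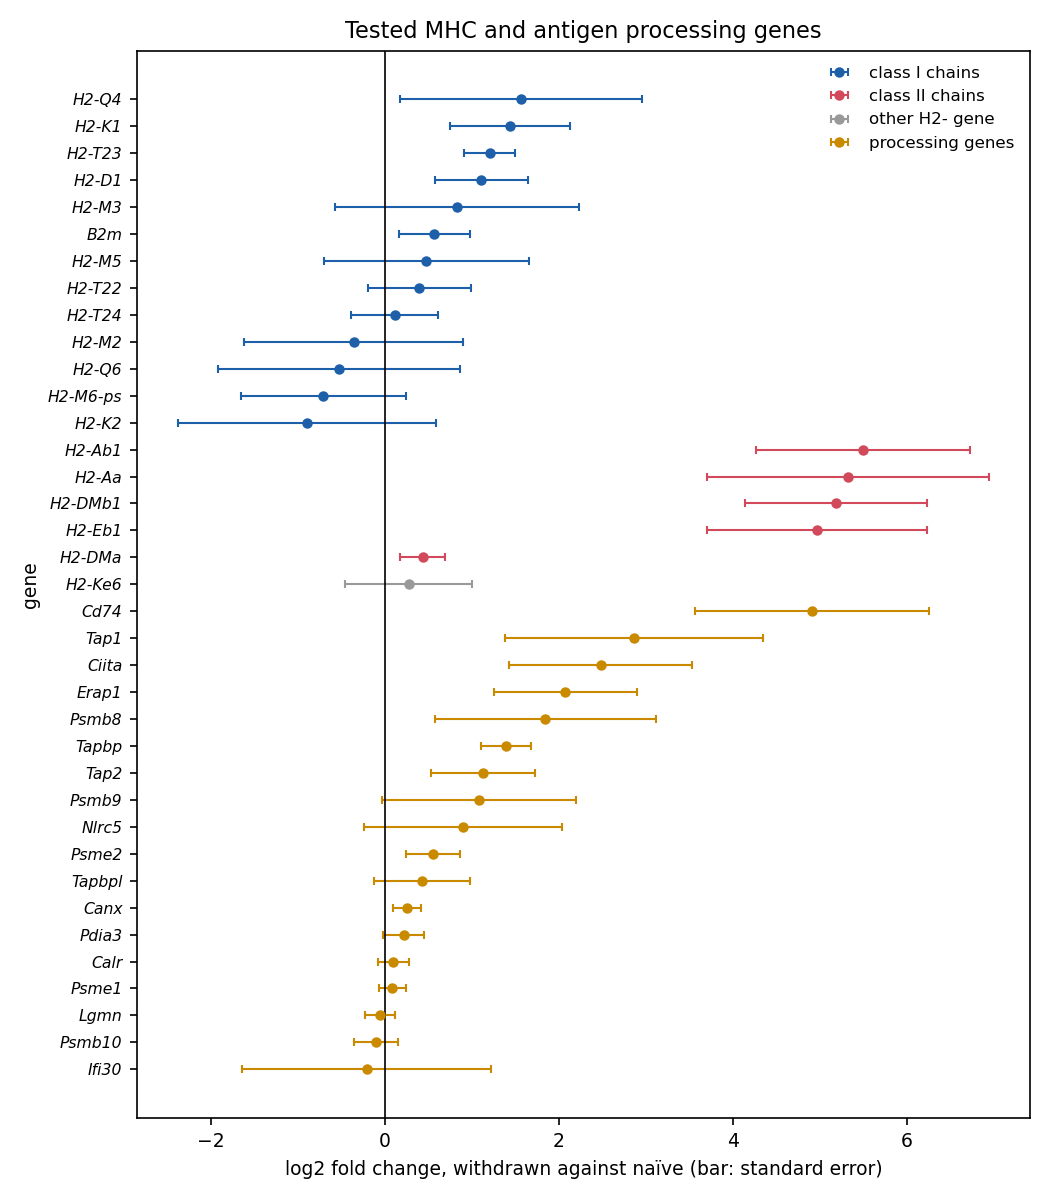
Log2 fold change of the 37 tested members (horizontal axis, withdrawn against naïve, point with standard error) by gene (vertical axis) and group. H2-Ab1, H2-Aa, H2-DMb1, H2-Eb1 and Cd74 lie between 4.91 and 5.50, apart from H2-DMa at 0.43 and from all class I chains, which lie between -0.90 and 1.57.

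Of the members tested by edgeR, 4 class II chains had the largest differences, while the fifth chain, H2-DMa, differed little. All 5 tested chains (H2-Aa, H2-Ab1, H2-Eb1, H2-DMa and H2-DMb1) were higher in withdrawn mice, 4 of them with an unadjusted p under 0.05, and their median log2 fold change was 5.18. Over all genes tested, 51.8% were higher and 7.22% had such a p. The 4 chains had naïve medians of 0 to 0.422 CPM and passed the low-count filter only through the withdrawn mice. Their direction and the median of 5.18 were therefore partly set by the filter. The difference was carried by withdrawn mice 1, 3, 4 and 5, whereas withdrawn mouse 2 stood with the naïve mice. Mice 3, 4 and 5 are those with conflicting labels, so without them the difference rests on withdrawn mouse 1. Over the alternatives other than leaving out 1 mouse, the lowest log2 fold changes were 4.20 (H2-Aa), 4.52 (H2-Ab1), 3.47 (H2-Eb1) and 4.65 (H2-DMb1). The largest adjusted p-values there, by edgeR or DESeq2, were 0.790, 0.789, 0.789 and 0.647. In bulk samples such as these, fewer cells of a type and less RNA per cell cannot be told apart.

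H2-Aa encodes the alpha chain and H2-Ab1 the beta chain of the I-A molecule, and H2-Eb1 encodes the beta chain of I-E. Their promoters, like those of the other class II genes, are known to carry an X box, bound by RFX and by CREB-type factors, and a Y box, bound by NF-Y, on which CIITA assembles. The 250 bases before the RefSeq start (GRCm38.p6) are shown for H2-Aa, H2-Eb1 and H2-DMb1 because these 3 chains had large differences. Sequences run 5′ to 3′ along the gene, and capitals mark CCAAT (the Y box letters) and TGACG (the core of a CREB-type site) on either strand. The promoter of H2-Ab1 was not among those listed.
H2-Aa (chr17:34287824-34288073, minus strand): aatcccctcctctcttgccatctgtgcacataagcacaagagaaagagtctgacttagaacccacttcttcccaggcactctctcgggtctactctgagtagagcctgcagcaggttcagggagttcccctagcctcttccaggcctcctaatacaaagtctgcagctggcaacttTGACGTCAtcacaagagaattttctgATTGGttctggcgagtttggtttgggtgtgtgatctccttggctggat
H2-Eb1 (chr17:34305617-34305866, plus strand): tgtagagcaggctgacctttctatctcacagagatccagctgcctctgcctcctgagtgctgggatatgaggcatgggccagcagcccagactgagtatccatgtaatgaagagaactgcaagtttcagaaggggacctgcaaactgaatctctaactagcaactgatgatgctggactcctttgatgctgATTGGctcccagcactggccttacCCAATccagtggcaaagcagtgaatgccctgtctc
H2-DMb1 (chr17:34152941-34153190, plus strand): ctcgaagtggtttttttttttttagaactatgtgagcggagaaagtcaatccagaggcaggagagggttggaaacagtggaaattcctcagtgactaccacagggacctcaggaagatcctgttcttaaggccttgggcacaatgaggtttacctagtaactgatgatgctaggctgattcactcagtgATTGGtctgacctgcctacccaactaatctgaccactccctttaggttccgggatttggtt

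In these windows CCAAT stood 48 to 44 bases before the start in H2-Aa, 59 to 55 in H2-Eb1 and 61 to 57 in H2-DMb1, in each case on the opposite strand, with a further match in H2-Eb1 at 35 to 31. CCAAT on either strand occurred in 33.8% of the 32851 listed promoter windows of this length and in 37 of the 47 members with one, so that alone it marks out few genes. In H2-Aa, TGACG matched on both strands in overlap (74 to 70 and 71 to 67 bases before the start), and 17.8% of all windows held this motif. The window of H2-DMa, the class II chain with the smallest difference, held a CCAAT match on at least 1 of its 2 listed starts and no TGACG. A match is a description of letters and not a binding site.

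H2-Aa was at 0 CPM in 5 of the 6 naïve mice and at 6.41 CPM (110 counts) in naïve mouse 4, a median of 0 CPM. In withdrawn mice 1 to 5 it stood at 41.1, 0, 57.2, 92.2 and 32.8 CPM. Withdrawn mouse 2 thus had no read of H2-Aa, as in most naïve mice, and the other 4 were above every naïve mouse. The log2 fold change was 5.32 ± 1.62 (SE; 6 naïve and 5 withdrawn mice), with an edgeR adjusted p of 0.327 and a DESeq2 adjusted p of 0.466.

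H2-Ab1 ranged from 0 to 3.32 CPM in naïve mice (median 0.422). Withdrawn mice 1 to 5 had 39.4, 0.895, 51.3, 73.0 and 34.4 CPM. The same 4 withdrawn mice exceeded all naïve mice, while withdrawn mouse 2 fell inside the naïve range. H2-Ab1 differed by 5.50 ± 1.23 on the log2 scale, with an adjusted p of 0.133 by edgeR and 0.0138 by DESeq2.

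H2-Eb1 showed 0 to 3.20 CPM in naïve mice (median 0.281). It stood at 15.2, 1.68, 44.0, 36.5 and 19.9 CPM in withdrawn mice 1 to 5. This was the single tested class II chain with its highest withdrawn value in mouse 3, and mouse 2 again lay among the naïve mice. The log2 fold change was 4.97 ± 1.27 (adjusted p 0.216 by edgeR and 0.00387 by DESeq2).

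H2-DMb1 encodes the beta chain of H2-DM, the molecule that lets class II exchange the Cd74 remnant for peptide. It reached 0 to 1.34 CPM in naïve mice (median 0.162) and 16.7, 1.12, 13.8, 23.5 and 8.56 CPM in withdrawn mice 1 to 5. With a log2 fold change of 5.18 ± 1.05 it had the smallest edgeR adjusted p of the set, 0.102, and a DESeq2 adjusted p of 3.28e-06. The groups overlapped through withdrawn mouse 2, which lay below naïve mouse 4.

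H2-DMa, which encodes the partner alpha chain, had another pattern. Every mouse expressed it, at 24.1 to 50.5 CPM in naïve mice (median 30.0) and at 32.6, 34.9, 43.7, 68.0 and 40.5 CPM in withdrawn mice 1 to 5. Its log2 fold change was 0.43 ± 0.26 (edgeR adjusted p 0.803), and withdrawn mouse 2 was not set apart. Of the 3448 exonic bases of H2-DMa, 360 are shared on the opposite strand with Brd2, a broadly expressed chromatin reader at 71.9 ± 22.8 CPM in naïve and 94.2 ± 16.8 CPM in withdrawn mice (SD). The library kit does not mark strand, and how strand was treated in counting is not given in the sources used here, so reads of the shared bases cannot be told apart.

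Per kilobase of exon, the order of levels was not the same in both groups. In naïve mice H2-DMa was highest at 9.43 ± 2.76 CPM per kilobase (SD), well above H2-Eb1 at 0.378 ± 0.640 and H2-Ab1 at 0.331 ± 0.501, which were not separated by their spread. In withdrawn mice H2-Ab1 had the highest mean at 15.5 ± 10.3 CPM per kilobase, with H2-DMa at 12.7 ± 4.10 and H2-Eb1 at 12.1 ± 8.71, and these spreads overlapped. The other 5 class II genes (H2-DMb2, H2-Ea-ps, H2-Eb2, H2-Oa and H2-Ob) did not pass the filter, with 2 to 45 counts in all. The 17 counts of H2-Eb2 all came from withdrawn mouse 2, the withdrawn mouse with the fewest reads of the classical chains. H2-Oa and H2-Ob encode H2-O, an inhibitor of H2-DM.

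Ratios of class II genes within a mouse were taken where both genes had at least 10 counts. The ratio of H2-Aa to H2-Ab1 reads was 1.04, 1.12, 1.26 and 0.953 in withdrawn mice 1, 3, 4 and 5. In naïve mouse 4, the only naïve mouse with enough reads, it was 1.93. The ratio of Cd74 to H2-Ab1 was 2.44 to 3.68 in the same withdrawn mice and 6.56 in naïve mouse 4. The ratio of H2-Eb1 to H2-Ab1 varied more, from 0.386 to 0.857 in those 4 withdrawn mice, and was 0.965 in naïve mouse 4.

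Cd74, the invariant chain that guides class II molecules to endosomes, followed the class II chains. It stood at 0 to 21.8 CPM in naïve mice (median 0.930, highest in mouse 4) and at 95.9, 0.784, 189, 244 and 116 CPM in withdrawn mice 1 to 5. Naïve mouse 4 stood above the other naïve mice and withdrawn mouse 2 inside the naïve range, in the same way as for H2-Aa. The log2 fold change was 4.91 ± 1.35, with an adjusted p of 0.263 by edgeR and 0.0490 by DESeq2, and it was 7.63 without naïve mouse 4. Over the alternatives other than leaving out 1 mouse, its lowest value was 3.48. Cd74, too, passed the low-count filter only with the withdrawn mice counted, so its direction was partly set by the filter.

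Ciita, the transactivator that switches on class II genes, was at most at 2.50 CPM in naïve mice (lowest 0, median 0.798, highest in mouse 4). Withdrawn mice 1 to 5 had 6.77, 4.25, 4.20, 13.4 and 0.495 CPM. Unlike the chains, Ciita was above all naïve mice in withdrawn mouse 2 and within their range in withdrawn mouse 5. It differed by 2.48 ± 1.05 on the log2 scale (edgeR adjusted p 0.634), and it shares 329 of 9535 exonic bases with Dexi on the opposite strand. Its direction, too, was partly set by the low-count filter, which it passed only with the withdrawn mice counted.

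The other genes of the class II route had no such pattern. Lgmn, an endosomal asparaginyl endopeptidase, was expressed in every mouse at 83.3 to 141 CPM in naïve mice (median 95.6) and 78.9 to 116 CPM in withdrawn ones, its log2 fold change being -0.06 ± 0.17. Ifi30, a thiol reductase that unfolds proteins in endosomes, was at 5.72 CPM or less in every naïve mouse and 3.68 CPM or less in every withdrawn mouse (log2 fold change -0.21 ± 1.43). Ctss, the cathepsin that trims Cd74 in antigen presenting cells, had 35 counts in all, in 3 mice, and did not pass the filter.

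**Figure D2:**
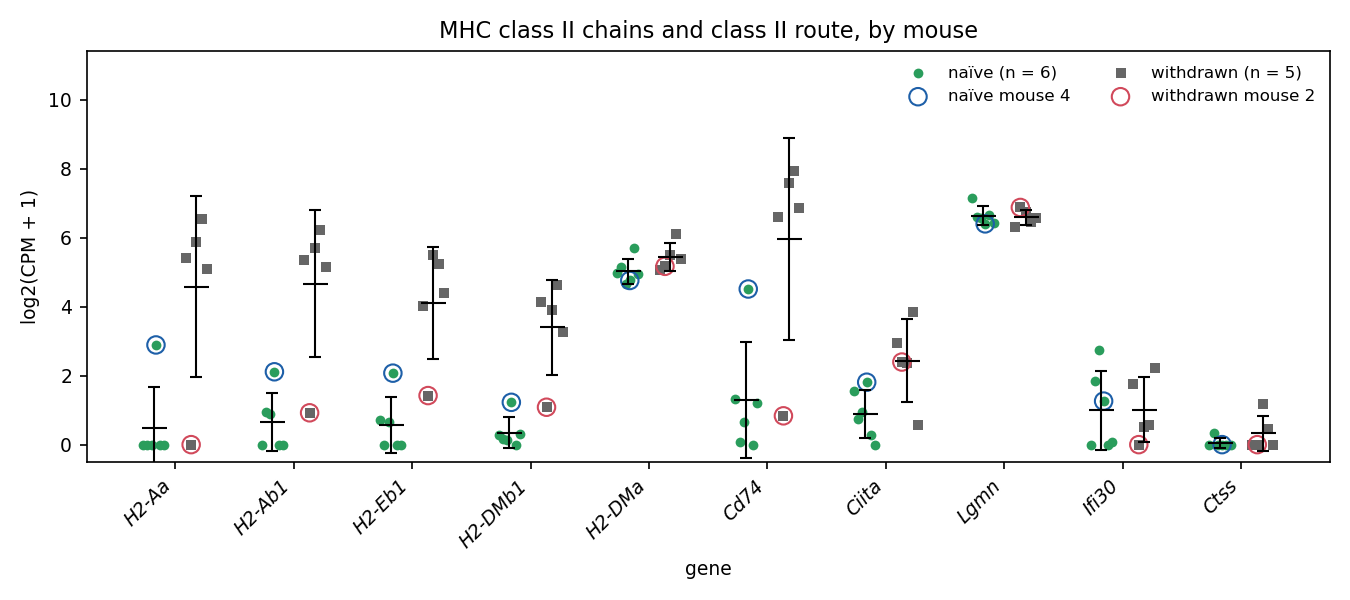
Class II chains and class II route genes (horizontal axis) as log2(CPM + 1) in each mouse (vertical axis), with the mean and SD of each group in black, circles for 6 naïve and squares for 5 withdrawn mice. Withdrawn mouse 2 (red ring) lies with the naïve mice for H2-Aa, H2-Ab1, H2-Eb1, H2-DMb1 and Cd74 but not for Ciita, and naïve mouse 4 (blue ring) is the highest naïve mouse for these 6 genes.

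Because class II genes are known as products of antigen presenting cells, the same libraries were read for marker genes of other cell types that a sort could hold. The summed level of 12 microglia markers was 15.4 to 26.4 CPM in naïve mice and 43.9, 12.5, 41.6, 47.7 and 31.8 CPM in withdrawn mice 1 to 5. Withdrawn mice 1, 3, 4 and 5 were above every naïve mouse and withdrawn mouse 2 was below every one. The defining markers P2ry12 and Cx3cr1 were at 1.69 CPM or less in every mouse. Tmem119 stood at 7.78, 0, 6.87, 14.4 and 7.92 CPM in withdrawn mice 1 to 5 and at 1.69 CPM or less in naïve mice. Of the 12 markers 5 were tested, with 3 higher, 2 lower and 1 (Tmem119) at an unadjusted p under 0.05.

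Border macrophage markers summed to at most 6.28 CPM in naïve and 10.7 CPM in withdrawn mice, and in withdrawn mouse 3, where Cd74 was at 189 CPM, they summed to 0.747 CPM. B cell markers summed to at most 1.76 and 8.73 CPM, and T cell markers to at most 8.06 and 16.7 CPM, with Cd3d at 0 in every mouse. Dendritic cell markers summed to 30.2 to 60.7 and 37.2 to 92.8 CPM, of which Zbtb46 was the largest part. Flt3 was present in every mouse, at up to 8.24 CPM in naïve mice and 21.2 CPM in withdrawn mouse 2, and Itgax reached 11.9 CPM in withdrawn mouse 2 but stayed at 0.824 CPM or less in the other mice. Xcr1 and Clec9a were at 0.874 CPM or less in every mouse.

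The fibroblast sum, like that of the class II chains, lay above every naïve mouse in withdrawn mice 1, 3, 4 and 5. The fibroblast sum was 0.0677 to 67.7 CPM in naïve mice and 1288, 17.8, 625.3, 896 and 231 CPM in withdrawn mice 1 to 5. Withdrawn mouse 2 was once more within the naïve range. The order within the withdrawn mice differed, since the class II sum was highest in mouse 4 (297 CPM) and the fibroblast sum in mouse 1. All 6 tested fibroblast markers were higher in withdrawn mice, 4 with an unadjusted p under 0.05 and none called by edgeR. DESeq2 called 3 of them higher, Col1a1, Dcn and Ogn, with adjusted p-values of 0.0107, 0.00891 and 0.0247. The 2 markers below the filter had lower means in withdrawn than in naïve mice. These were Lum (0.910 against 1.36 CPM) and Igf2 (0.0916 against 0.468 CPM). Collagen Col1a1, for one, had an edgeR log2 fold change of 4.88 (adjusted p 0.157). Endothelial markers ran otherwise, at 3.18 to 767 CPM in naïve and 39.3 to 627 CPM in withdrawn mice, with 5 of 7 lower and 2 higher. Of the tested markers, 1 astrocyte marker was higher and 4 lower, 2 oligodendrocyte markers were higher and 3 lower, and 2 mural markers were higher and 3 lower. Among single genes of these lists, Gja1 and Cldn11 were, like the class II chains, above every naïve mouse in withdrawn mice 1, 3, 4 and 5 and not in mouse 2. Gja1, listed for astrocytes, was at 0 to 31.9 CPM in naïve mice and 309, 6.38, 217, 273 and 129 CPM in withdrawn mice 1 to 5, a log2 fold change of 3.61 (edgeR adjusted p 0.250). Cldn11, listed for oligodendrocytes, was at 0 to 2.10 CPM and at 48.0, 0, 16.1, 27.9 and 5.02 CPM, and differed by 5.09 on the log2 scale (adjusted p 0.262 by edgeR and 0.00847 by DESeq2, which called it). The mural marker Pdgfrb was at 0 to 15.3 CPM and at 35.4, 0.895, 15.9, 84.5 and 6.79 CPM, with withdrawn mice 2 and 5 inside the naïve range and a log2 fold change of 2.74 (edgeR adjusted p 0.686). These 3 genes were chosen after their values were seen. The part of these cell types in the class II difference was not tested.

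**Figure D3:**
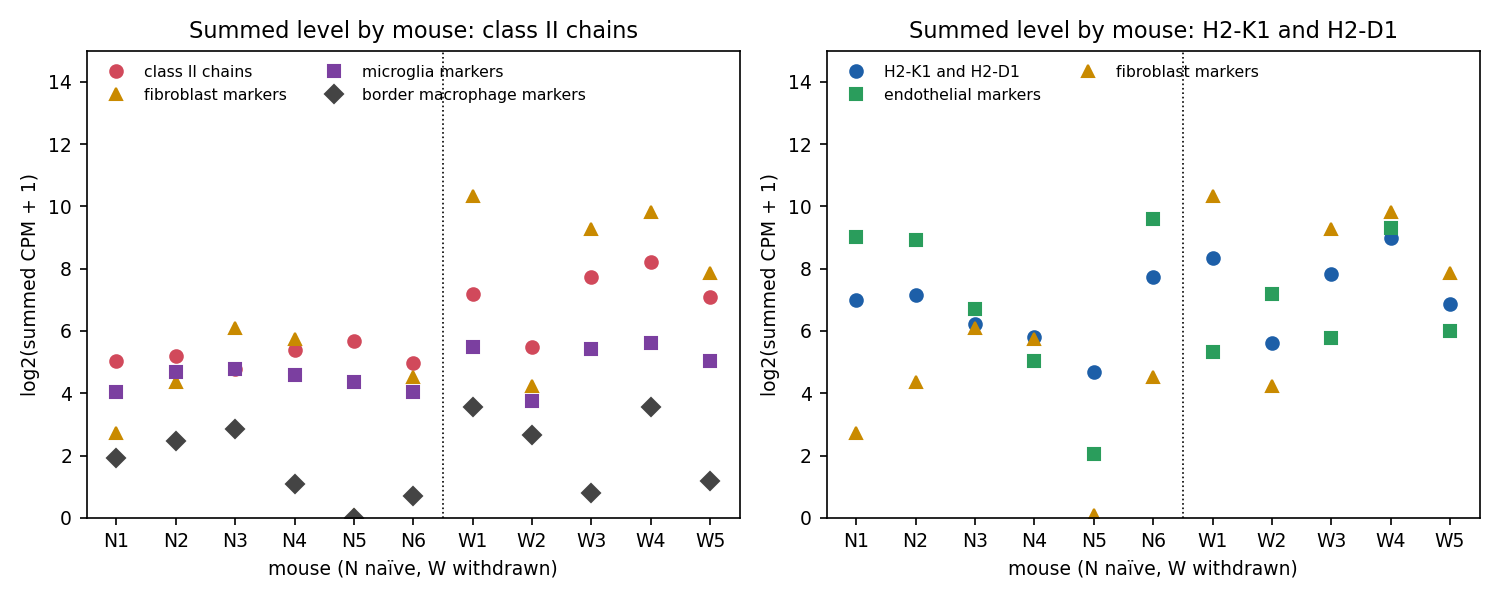
Summed levels per mouse as log2(summed CPM + 1), with naïve mice N1 to N6 and withdrawn mice W1 to W5 on the horizontal axis. On the left, class II chains stand beside fibroblast, microglia and border macrophage markers, and W2 is the lowest withdrawn mouse for the first 3; on the right, H2-K1 and H2-D1 stand beside endothelial and fibroblast markers.

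The main class I chains were detected in every mouse of both groups. Of the 33, 13 were tested, with 9 higher and 4 lower in withdrawn mice, a median log2 fold change of 0.47, and 1 (7.69%) with an unadjusted p under 0.05. This share lay near the 7.22% of all genes tested, of which 51.8% were higher. The summed level of the 32 heavy chain genes was 66.7 to 276 CPM in naïve mice and 432, 117, 309, 685 and 187 CPM in withdrawn mice 1 to 5. H2-K1 and H2-D1 together contributed from 24.6 of the 66.7 CPM in naïve mouse 5 to 502 of the 685 CPM in withdrawn mouse 4. The groups overlapped, with withdrawn mice 2 and 5 inside the naïve range.

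Class I promoters are known to join a kappa B site and an interferon-stimulated response element to a module that resembles the class II X and Y boxes and is served by NLRC5. The windows of H2-K1, a classical heavy chain gene, B2m, its light chain, and H2-T23, the one heavy chain with separated groups, are shown for comparison with the class II windows, with the same letters in capitals.
H2-K1 (chr17:34000348-34000597, minus strand): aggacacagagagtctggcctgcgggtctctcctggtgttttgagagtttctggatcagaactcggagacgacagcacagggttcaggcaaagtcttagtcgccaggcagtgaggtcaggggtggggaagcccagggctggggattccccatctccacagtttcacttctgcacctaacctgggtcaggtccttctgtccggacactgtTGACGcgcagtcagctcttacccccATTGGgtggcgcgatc
B2m (chr2:122147437-122147686, plus strand): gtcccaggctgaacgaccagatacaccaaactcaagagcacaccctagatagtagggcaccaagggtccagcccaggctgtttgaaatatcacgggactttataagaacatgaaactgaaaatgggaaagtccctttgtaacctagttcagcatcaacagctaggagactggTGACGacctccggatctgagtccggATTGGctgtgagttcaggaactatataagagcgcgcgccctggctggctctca
H2-T23 (chr17:36032702-36032951, minus strand): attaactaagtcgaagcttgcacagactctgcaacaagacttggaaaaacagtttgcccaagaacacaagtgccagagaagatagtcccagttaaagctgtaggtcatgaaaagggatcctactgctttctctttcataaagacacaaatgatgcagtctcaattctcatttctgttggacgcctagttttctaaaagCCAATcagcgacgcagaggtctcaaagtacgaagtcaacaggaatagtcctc

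H2-K1 held TGACG 41 to 37 bases before its start and CCAAT at 16 to 12. B2m held TGACG at 78 to 74 and CCAAT at 53 to 49. In H2-T23 CCAAT stood at 52 to 48, with no TGACG in the window. TGACG was found in 19 of the 47 members with a window, among them H2-D1, Tap1 and Psmb9, and the letters of the kappa B site and the response element were not searched.

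H2-T23 encodes Qa-1, a non-classical chain that presents leader peptides of other class I molecules to receptors of natural killer and T cells. It ranged from 14.3 to 32.0 CPM in naïve mice (median 23.1) and stood at 58.4, 37.8, 48.1, 91.6 and 35.8 CPM in withdrawn mice 1 to 5. All 5 withdrawn mice were above all 6 naïve mice, withdrawn mouse 2 included. It was the only one of the 37 tested members whose groups did not overlap, which was so for 0.948% of all genes tested (0.690% higher). The log2 fold change was 1.20 ± 0.29, with an adjusted p of 0.178 by edgeR and 0.0127 by DESeq2. With withdrawn mice 1 and 2 alone it was 0.98 ± 0.39 (edgeR adjusted p 0.789).

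H2-D1 and H2-K1 encode the classical heavy chains that present peptides to CD8 T cells. H2-D1 ranged from 19.3 to 160 CPM in naïve mice (median 70.7) and was at 239, 44.4, 148, 325 and 79.3 CPM in withdrawn mice 1 to 5. H2-K1 ranged from 5.28 to 53.3 CPM (median 30.4) and was at 87.2, 3.81, 78.9, 177 and 37.4 CPM. For both genes the groups overlapped, and withdrawn mouse 2 was below 4 of the 6 naïve mice for H2-D1 and below all 6 for H2-K1. Their log2 fold changes were 1.10 ± 0.53 and 1.44 ± 0.69, each with an edgeR adjusted p of 0.707.

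Among naïve mice, the summed level of H2-K1 and H2-D1 was highest in mouse 6 at 214 CPM, then in mice 2 and 1 at 141 and 128 CPM, and lowest in mouse 5 at 24.6 CPM. Endothelial markers, from cells known for high class I expression, had their highest naïve sums in the same 3 mice at 767, 481 and 519 CPM and their lowest in mouse 5 at 3.18 CPM. In withdrawn mice 1 to 5, H2-K1 and H2-D1 summed to 326, 48.2, 227, 502 and 117 CPM. Endothelial markers there summed to 39.3, 145, 53.7, 627 and 63.4 CPM. Fibroblast markers summed to 1288, 17.8, 625.3, 896 and 231 CPM in the same mice. The part of these cells in the class I levels was not tested.

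B2m, the light chain of every classical class I molecule, stood at 40.7 to 152 CPM in naïve mice (median 65.6). Withdrawn mice 1 to 5 had 131, 39.8, 81.3, 213 and 76.8 CPM. Withdrawn mice 1, 3 and 5 lay inside the naïve range, mouse 4 above it and mouse 2 just below it, and the log2 fold change was 0.56 ± 0.41 (edgeR adjusted p 0.852). Per kilobase B2m was the highest class I member at 104 ± 63.2 CPM per kilobase over all 11 mice (SD), ahead of H2-D1 at 45.9 ± 36.4 and H2-K1 at 17.2 ± 17.01, neighbours whose spreads overlap.

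The 9 other tested class I genes (H2-K2, H2-M2, H2-M3, H2-M5, H2-M6-ps, H2-Q4, H2-Q6, H2-T22 and H2-T24) had log2 fold changes from -0.90 (H2-K2) to 1.57 (H2-Q4), each with an unadjusted p above 0.05. The 20 class I genes below the filter held 0 to 138 counts in all 11 mice together, and H2-M10.4, H2-M10.5 and H2-M11 held none. H2-T10 had 72, 3, 11, 28 and 0 counts in withdrawn mice 1 to 5 and at most 1 count in any naïve mouse. H2-T-ps had 44, 0, 15, 25 and 10 counts, with a single naïve count. DESeq2 called both (adjusted p 0.00923 and 0.00548), and edgeR did not test them. Heavy chain genes are near-identical copies that can share reads, so that counts of single Q, T and M genes are uncertain, and H2-T10 overlaps BC023719 over 925 exonic bases. The H2 haplotype of the CRF1:GFP mice is not given in the sources used here, and reads of a haplotype other than that of the reference could map unevenly, which also bears on the levels of H2-K1 and H2-D1.

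**Figure D4:**
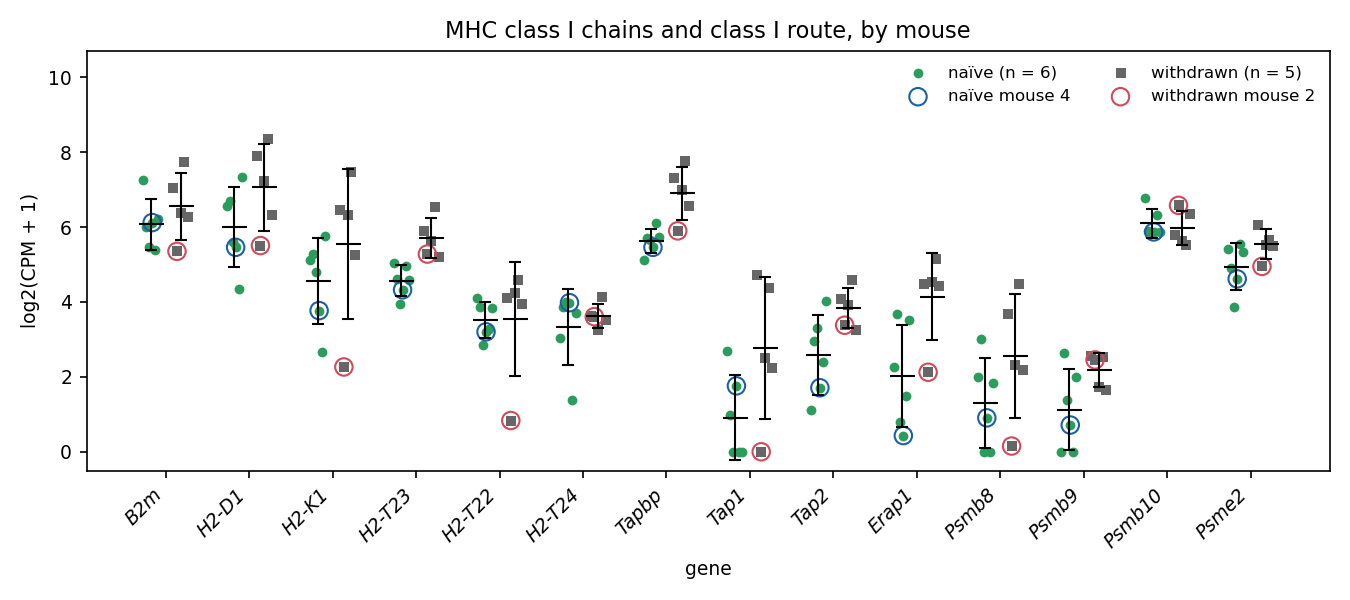
Class I chains and class I route genes (horizontal axis) as log2(CPM + 1) in each mouse (vertical axis), with the mean and SD of each group in black, circles for 6 naïve and squares for 5 withdrawn mice. H2-T23 is the 1 gene shown in which every withdrawn mouse is above every naïve mouse. Withdrawn mouse 2 (red ring) is the lowest withdrawn mouse for B2m, H2-D1, H2-K1, H2-T22, Tapbp, Tap1, Erap1, Psmb8 and Psme2.

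All 13 genes of the class I route were tested, with 12 higher and 1 lower in withdrawn mice, a median log2 fold change of 0.55 and 2 (Tapbp and Erap1) with an unadjusted p under 0.05. Tapbp encodes tapasin, which bridges TAP and the empty class I molecule. It stood at 33.7 to 67.8 CPM in naïve mice (median 50.4) and at 157, 58.7, 125, 216 and 93.4 CPM in withdrawn mice 1 to 5. Withdrawn mouse 2 alone lay inside the naïve range. Tapbp differed by 1.39 ± 0.29 on the log2 scale, with an adjusted p of 0.105 by edgeR and 0.00399 by DESeq2.

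Tapbp was the member called under the most alternatives. Its edgeR adjusted p was 0.0325 over genes with at least 10 counts in every mouse, where 0.283% of genes were called, 0.0263 with no filter (0.327% called) and 0.00866 without withdrawn mouse 2 (1.06% called). With withdrawn mice 1 and 2 alone the log2 fold change was 1.08 ± 0.36 (adjusted p 0.691). Tapbp shares 904 of its 3628 exonic bases on the opposite strand and 149 on the same strand with Zbtb22 and Gm19412. Zbtb22 was at 17.3 ± 5.69 CPM in naïve and 17.2 ± 2.79 CPM in withdrawn mice (SD), with a log2 fold change of -0.01.

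Erap1, the aminopeptidase that trims peptides in the endoplasmic reticulum, ranged from 0.349 to 11.8 CPM in naïve mice (median 2.79). It was at 21.2, 3.36, 22.0, 34.4 and 20.6 CPM in withdrawn mice 1 to 5, again with withdrawn mouse 2 inside the naïve range and the other 4 above it. The log2 fold change was 2.07 ± 0.82 (edgeR adjusted p 0.563). Erap1 shares 834 of 7280 exonic bases with Cast on the opposite strand.

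Tap1 and Tap2 encode the subunits of the peptide transporter. Tap1 was at 0 in 3 naïve mice and at most at 5.48 CPM (median 0.494), against 25.4, 0, 4.72, 19.7 and 3.75 CPM in withdrawn mice 1 to 5. Tap2 ranged from 1.18 to 15.4 CPM (median 5.54), against 15.8, 9.40, 14.2, 22.9 and 8.49 CPM. Both overlapped between groups, with Tap1 above the naïve range in withdrawn mice 1 and 4. Their log2 fold changes were 2.86 ± 1.49 and 1.13 ± 0.60, with edgeR adjusted p-values of 0.754 and 0.763.

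Psmb8, Psmb9 and Psmb10 encode the catalytic subunits of the immunoproteasome, which replace constitutive subunits when interferon acts on a cell. Psmb8 was at 0 to 7.03 CPM in naïve mice (median 1.73) and at 11.7, 0.112, 4.02, 21.1 and 3.54 CPM in withdrawn mice. Psmb9 was at 0 to 5.27 CPM (median 1.12) and at 4.90, 4.48, 2.34, 4.79 and 2.12 CPM. Psmb10 was present in every mouse, at 56.3 to 109 CPM (median 57.9) and at 54.2, 94.7, 48.5, 45.1 and 81.1 CPM. The 3 subunits did not run together, since withdrawn mouse 2 was lowest of its group for Psmb8 and highest for Psmb10. Their log2 fold changes were 1.84 ± 1.27, 1.08 ± 1.11 and -0.11 ± 0.25, with edgeR adjusted p-values of 0.836, 0.904 and 0.966.

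Psmb9 and Tap1 lie head to head, with starts 226 bases apart, and share 212 exonic bases on opposite strands. Both belong to the class II region: 50 of the 65 members lie between 33915899 and 37483552 on chromosome 17 (GRCm38), and the span of the class II genes, from 34092340 to 34344645, also holds Psmb9, Tap1, Psmb8 and Tap2. Neighbours in that span could differ in value: H2-DMa and H2-DMb1, separated there by H2-DMb2 alone, had log2 fold changes of 0.43 and 5.18.

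The general chaperones of the endoplasmic reticulum were the most abundant processing genes. Per kilobase over all 11 mice, Pdia3, a disulfide isomerase of the loading complex, stood at 157 ± 44.0 CPM per kilobase (SD), Calr (calreticulin) at 101 ± 19.1 and Canx (calnexin) at 86.1 ± 15.5, and the spreads of neighbours in this order overlapped. In naïve mice their lowest, median and highest levels were 343, 439.9 and 601 CPM for Pdia3, 231, 291 and 320.2 CPM for Calr, and 265, 361 and 488 CPM for Canx. In withdrawn mice 1 to 5 Pdia3 was at 585, 256, 612, 739.7 and 478 CPM, with mouse 2 below every naïve mouse. Calr was at 311, 187, 388, 318 and 300.4 CPM, again with mouse 2 lowest, and Canx at 402, 395, 445, 502 and 469 CPM with no mouse apart. The log2 fold changes were 0.21 ± 0.23, 0.10 ± 0.18 and 0.25 ± 0.16, and the edgeR adjusted p-values 0.911, 0.958 and 0.816. Without the 3 mice with conflicting labels, Pdia3 and Calr turned to -0.17 and -0.22.

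Psme1 and Psme2, which encode the proteasome activator PA28, and Tapbpl, a tapasin-like peptide editor, had log2 fold changes of 0.08, 0.55 and 0.42, with overlapping groups. Nlrc5, the class I transactivator, ranged from 0 to 2.06 CPM in naïve mice (median 0.582) and was at 0.360, 5.26, 1.26, 0.492 and 0.566 CPM in withdrawn mice 1 to 5. Withdrawn mouse 2 alone was above the naïve range. Its place for the heavy chains varied, below every naïve mouse for H2-K1 and above every one for H2-T23 and H2-Q4. The log2 fold change of Nlrc5 was 0.90 ± 1.14 (edgeR adjusted p 0.928) and turned to -0.31 without that mouse. H2-Ke6, a steroid dehydrogenase gene in the region, had a log2 fold change of 0.27 and shares 1419 of 1643 exonic bases with Gm20427.

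Over the set as a whole, the same withdrawn mice tended to lie at the extremes. Withdrawn mouse 4 had the highest withdrawn level for 24 of the 37 tested members (64.9%), against 26.0% of all genes tested. Withdrawn mouse 2 had the lowest for 23 of the 37 (62.2%), against 32.0% of all genes. Without withdrawn mouse 2, edgeR called 4 members (H2-Ab1, H2-DMb1, H2-T-ps and Tapbp) and 193 of all genes (1.06%). Withdrawn mouse 4 had the fewest counts and the lowest neuronal sum, and it had summed levels of 627, 207 and 896 CPM for endothelial, mural and fibroblast markers. The part of these features in the members' levels was not tested.

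Other genes of the pathway were counted from a separate list of 50, of which 48 were matched and 42 tested. In withdrawn mice 29 were higher and 13 lower, none was called by edgeR, and 4 (9.52%) had an unadjusted p under 0.05 (3 higher, 1 lower), with a median log2 fold change of 0.20. Over all genes tested 51.8% were higher and 7.22% had such a p. DESeq2 called 1 of the list, Sec61a1 (adjusted p 0.0315). The 3 higher were Sec61a1, the channel through which chains enter the endoplasmic reticulum (0.79), and the class I-like genes Mr1, which presents vitamin metabolites (2.81), and Hfe, which regulates iron uptake (2.72). The 1 lower was Ifngr2, a subunit of the interferon gamma receptor (-0.39). Their edgeR adjusted p-values were 0.225, 0.570, 0.651 and 0.689. The 9 promoter factors, among them Rfx5, Nfya and Rela, had a median of -0.06 with 4 higher and 5 lower, and the 8 genes of interferon gamma signalling a median of 0.36 with 6 higher and 2 lower. The 6 constitutive proteasome genes had a median of -0.18 with 2 higher and 4 lower.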

How the data were processed

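RNA of GFP-positive mPFC cells, sorted from single male CRF1:GFP mice (6 naïve, 5 withdrawn), was made into SMARTseq HT libraries from 160 pg of RNA. The deposited values are raw counts per Ensembl gene and mouse: the authors trimmed reads with cutadapt, mapped them with STAR to GRCm38 and counted them with HTSeq, without pooling. Amplification from so little RNA without molecular identifiers means that counting floors cover counting error only. Groups follow the recorded treatment and title. Symbols, exons and positions came from GENCODE M21, also on GRCm38, which named 53360 of the 53465 identifiers, and promoter windows (250 bases before the start) from RefSeq.

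Rows that name no gene (5.77% to 48.1% of reads outside genes, and ambiguous or multiply mapped reads) were left out. Groups were compared by edgeR's quasi-likelihood test (edgeR 4.0.16, R 4.3.3) on TMM-normalized counts, after a filter by group (filterByExpr, minimum count 10, total 15), with Benjamini-Hochberg adjustment over 17093 genes. A gene was called when its adjusted p was 0.05 or less and its log2 fold change exceeded 0.6 in size. Standard errors (SE) were the log2 fold change over the square root of F. CPM used TMM-normalized library sizes. The fits were tested on simulated data with known changes. Recovery of the changed genes was required only at a set variability between mice. The share recovered at the variability of these data is not given here. Library pairs differed by a chi-square per degree of freedom of at least 29.3, so no library was counted as a duplicate.

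Genes named with values were a preset list of classical members, the 3 highest per kilobase in each group, those with an unadjusted p under 0.05, and those called by DESeq2 1.42.0; others, with values, were named after these were seen. The members and lists were chosen with earlier results of these data known. The alternatives were DESeq2's Wald test, DESeq2 size factors or TMMwsp in edgeR, no filter or at least 10 counts in every mouse, no fold threshold, a replicate block, each mouse left out, and fits without the 3 withdrawn mice whose further label reads control. DESeq2 without these 3 was added after seeing the data. The other assays of the study were not analysed here.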

Additional observations from a re-analysis of the deposited data

Results flagged for a closer look

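In 6 of 48 sets of values (1 gene in 1 group) a single mouse lay far from the rest, where chance flags about 1 in 20 groups, or 2.4 of 48. That rate holds for independent values without ties, so it is only a rough guide here. The sets share mice, and where all other mice of a group have no count, a single read gives a flag. Withdrawn mouse 2 accounted for 4 of the 6. On the log2 CPM scale with a prior count of 2 it stood at -2.80 for H2-Aa (0 counts), 0.0558 for H2-Ab1 (8 counts), -0.11 for Cd74 (7 counts) and 1.81 for Erap1 (30 counts), each far below the other 4 withdrawn mice. Naïve mouse 4 stood at 2.71 for H2-Aa (110 counts), while the other 5 naïve mice had no count. Naïve mouse 2 stood at -2.33 for H2-T-ps, which rests on 1 count where the other naïve mice had none.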

How the results depend on the processing

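The count of all genes called, 1 in the main comparison, was 362 with DESeq2's Wald test, 168 with that test without the 3 mice with conflicting labels, 137 with no low-count filter, 30 with at least 10 counts in every mouse, 0 without these 3 mice, and 0 to 193 when each mouse was left out, with 193 without withdrawn mouse 2 and 6 without naïve mouse 2. Members with an unadjusted p under 0.05, 9 in the main comparison, numbered 15 with DESeq2, 18 with no filter, 5 with at least 10 counts in every mouse, 4 without the 3 mice, and 7 to 13 when each mouse was left out. Members called, 0 in the main comparison, numbered 8 with DESeq2, 5 with no filter (Cd74, H2-Ab1, H2-DMb1, H2-Eb1 and Tapbp), 1 with at least 10 counts in every mouse (Tapbp), and 0 to 4 when each mouse was left out.

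The direction turned for 4 named members, none with an unadjusted p under 0.05. Calr went from 0.10 to -0.22 without the 3 mice and -0.14 with DESeq2 without them, Pdia3 from 0.21 to -0.17 and -0.10, and Psmb10 from -0.11 to 0.0327 and 0.14. With each mouse left out, Calr ranged from -0.0328 to 0.22, Psmb10 from -0.29 to 0.0670 and Nlrc5 from -0.31 to 1.14. Of 459 alternative values of single members or group counts, 417 kept their direction and their side of the threshold or, for counts, stayed near the main count. No member was called in the main comparison, so a member that stayed uncalled kept its side whatever its adjusted p. The cause of the changes was not tested.

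Replicate numbers do not pair the mice, which are different animals: same-numbered mice correlated at -0.20 to 0.18 over 5 pairs. With the replicate block edgeR called 0 genes, and 11 members had an unadjusted p under 0.05. H2-T-ps and H2-T10 were tested only where the filter let them in, and depth limits both, with at most 1 count in any naïve mouse.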
